A study of Homo sapiens with 13 samples.

Results

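The 3’ ends of poly(A) RNA from 6 genes, VMA21, REEP5, CHCHD1, ZNF503, RSL1D1 and AXL, were compared between human HEK293 cells with an R749H and a wild-type Rpb1, the largest subunit of RNA polymerase II (Pol II). These genes, of 14575 with 3’ ends in the tables, were chosen by the same measured values that are given here, the shares of their reads at each 3’ end in R749H and wild-type libraries, as the downstream share had moved between both cell lines. Their differences between the lines are therefore described, and fits over all genes that include them are not read as tests of them. The cells were HEK293 Flp-in T-REx, a human embryonic kidney line with a single docking site for transgenes. In both lines doxycycline at 2 µg/ml induced an α-amanitin resistant Rpb1, and α-amanitin at 2.5 µg/ml for 42 hr then inhibited the cell's own Pol II. By the labels doxycycline was given for 24 hr before α-amanitin. The published methods state a shorter time. By design the lines differ by the R749H substitution in the funnel domain, known to slow elongation. Genotype and line coincide, so effects of the substitution and of the line cannot be told apart. Every library carries the drug, the inducer, hygromycin and blasticidin. The labels name the tag of Rpb1 as Avitag in the titles and B10 in the source names, and whether a line is 1 clone is not given in the sources used here. Libraries were made by 3’ READS, which sequences the junction of the RNA and its poly(A) tail, from 5 wild-type and 4 R749H replicates.

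Read numbers within 5 kb of stop codons ranged from 2479851 to 10135014 per wild-type library and from 3863468 to 6475987 per R749H library. Library R749H replicate 3 stands apart, as isoforms with 1 read made up 6.60% of its isoforms, and between 30.05% and 36.2% in every other library. Of 8 genes listed as marks of HEK293 cells, 5 had reads in every library, while the neurofilament genes NEFL and NEFM had none and at most 1 read. Their summed level was 3666 to 5706 scaled reads in wild-type and 3965 to 5512 in R749H libraries, most of it from the keratin gene KRT18 with 2329 to 4289. On the same list VIM, which encodes vimentin, had 511 to 1121 in wild-type and 304 to 427 in R749H libraries, and PAX2, a transcription factor gene of the kidney, had 10.1 to 27.7 and 0 to 4.78, so that both were lower in every R749H library. INA, KRT8, KRT18 and LIN28B, on the same list, overlapped between the lines, with LIN28B at 192 to 251 in wild-type and 188 to 329 in R749H libraries. On this scale of the authors 22.4% of 9681 genes had every R749H library below every wild-type library. The median gene had an R749H to wild-type ratio of 0.754 on it. Relative to the median gene the groups would overlap for VIM and not for PAX2. The part of VIM and PAX2 in the results was not tested. Of 6 marker genes of liver, blood, stroma and endothelium, 4 had no reads, and the sums were 0 to 3.62 scaled reads. In a bulk measurement, fewer cells with a transcript and less RNA per cell cannot be told apart.

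A 3’ end forms when the nascent transcript is cut and polyadenylated a short distance after a poly(A) signal, a hexamer of which AATAAA is the most frequent form and ATTAAA the next. Many human genes hold more than 1 such site in the 3’ UTR, so that the same protein is made from mRNAs with short or long 3’ UTRs, and around each site the cut falls at several neighbouring nucleotides. Positions are given in nt after the stop codon, and an isoform is 1 such position. Isoforms no more than 24 nt apart were joined into a site, and a site with at least 5% of the reads of its gene was called major. The 6 genes had 12 major sites.

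The 3’ ends that carry the differences are given as the last 30 nt before the cut, from the reference genome GRCh37 (hg19), with the signal in capitals. They are the ends with the most reads in major sites of 5 of the genes.
VMA21 +102, chrX:150573603-150573632, plus strand: tgAATAAAgttgaaagaacatgttaaagtc
VMA21 +4305, chrX:150577806-150577835, plus strand: gatgtcATTAAAaaaagtgtttgtagtgct
REEP5 +305, chr5:112214178-112214207, minus strand: atataaacttaaAATAAAattatatacccc
REEP5 +2399, chr5:112212084-112212113, minus strand: atagatgtaAATAAAattgagttctcattt
CHCHD1 +184, chr10:75543100-75543129, plus strand: atttatcttgaAATAAAatcctctgaacag
CHCHD1 +464, chr10:75543380-75543409, plus strand: tgaatAATAAAgttaacaaactggtgacct
ZNF503 +488, chr10:77158019-77158048, minus strand: agattataAATAAAagcaaaaccgccacag
ZNF503 +899, chr10:77157608-77157637, minus strand: ttaaagATTAAAattccgtatatttgatgt
AXL +1861, chr19:41767641-41767670, plus strand: tcaggtcaCATAAAactttgtatatcaacg
AXL +3135, chr19:41768915-41768944, plus strand: agccagggtaacaagagcgagactccgtct

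All of these ends except AXL +3135 lie in the annotated 3’ UTR of their gene. The REEP5 ends also lie opposite an intron of SRP19 on the other strand, and the ZNF503 ends inside an intron of ENSG00000270087 on the same strand, so reads of ZNF503 and of that gene cannot be told apart. Among the most used ends of 7955 genes, 67.6% had AATAAA and 16.5% ATTAAA on the RNA strand in the 40 nt before the cut, 1.32% had CATAAA as the leading signal, and 5.68% had none of the 9 hexamers searched. The hexamers were searched in a fixed order, first AATAAA, followed by ATTAAA, followed by AGTAAA, followed by TATAAA, followed by CATAAA, followed by GATAAA, followed by AATATA, followed by AATACA and last AATAGA, so that a later one was counted where no earlier one was found. In VMA21 and ZNF503 the upstream end had AATAAA and the downstream end ATTAAA, while in REEP5 and CHCHD1 both ends had AATAAA.

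For each gene, the downstream share is the percentage of its reads in a library at or beyond the isoform that divides the summed reads of all libraries most evenly. The R749H libraries were lower than every wild-type library in VMA21, REEP5, CHCHD1, ZNF503 and RSL1D1, and higher in AXL. Over all genes, 2.44% of 7876 had every R749H library below and 1.28% above every wild-type library, and nothing is read from these shares as the same values chose the 6 genes. The median difference of R749H minus wild-type was −13.2 percentage points over the 6 genes. Of the 7955 genes, counted as entries of the CCDS database of coding sequences, that averaged 20 or more reads in a library, 7876 had reads in every library, and their median difference was −0.51. In a limma fit over all 7955 genes with Benjamini-Hochberg adjustment, 6 genes passed an adjusted p of 0.05, or 0.0754%, with R749H lower in 0.0503% and higher in 0.0251%, and none of the 6 described was among them. All 6 had an unadjusted limma p under 0.05, as did 8.74% of all genes. On the recovered reads edgeR called 2 of them (CHCHD1 and VMA21) with 0.239% of all genes, and DESeq2 called all 6 with 0.59%. Nothing is read from the p-values and calls of these 6 genes, as the values that chose them also entered the fits.

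**Figure D1:**
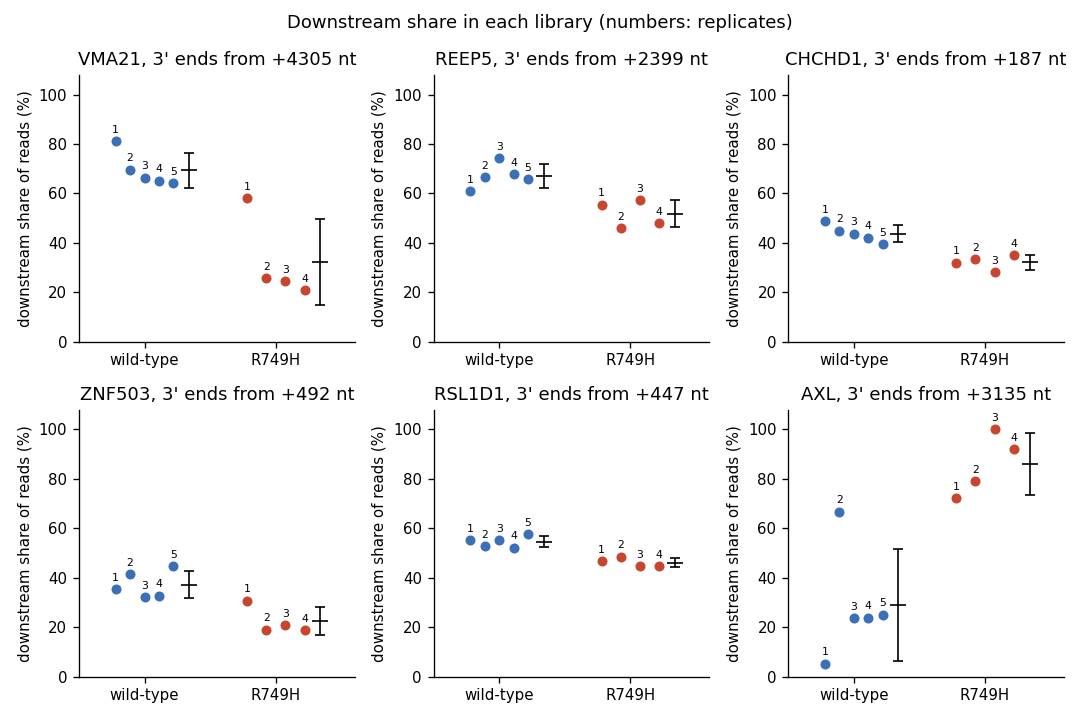
Downstream share of reads (%) of the 6 genes in each wild-type (blue) and R749H (red) library, with replicate numbers and, in black, the mean ± SD. The groups do not overlap in any panel, R749H replicate 1 lies apart from the other R749H libraries in VMA21 and ZNF503, and the spread is widest in AXL.

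VMA21 encodes a chaperone of the endoplasmic reticulum that assembles the membrane sector of the vacuolar H+-ATPase, and its loss of function causes an X-linked myopathy with autophagic vacuoles. Its reads ended in 2 sites 4203 nt apart, at +84 to +116 and at +4284 to +4310, both in the 3’ UTR. The share of reads at or beyond +4305 was 81.2%, 69.6%, 66.4%, 65.2% and 64.2% in wild-type replicates 1 to 5 and 58.0%, 25.8%, 24.6% and 20.8% in R749H replicates 1 to 4. R749H replicates 2 to 4 thus lay close together, whereas replicate 1 lay nearer to the wild-type libraries than to them. The means were 69.3% ± 6.93 (SD, n = 5) and 32.3% ± 17.3 (SD, n = 4), a difference of −37.0 percentage points, and −45.6 without R749H replicate 1. Of the 7876 genes with reads in every library, 12 had a larger absolute difference. Its reads numbered 844 to 2003 per library, which gives 95% Wilson intervals of at most 6.45 percentage points in width, for counting error only.

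The levels at the 2 sites were read from the authors' scaling to 7 M poly(A) reads per library. On that scale the median gene had an R749H to wild-type ratio of 0.754 (log2 −0.41), while with TMM and RLE factors its log2 ratio was −0.07 and −0.06, so each ratio below is given as scaled and again divided by that of the median gene. For levels, overlap between the groups is given as scaled unless stated. The proximal VMA21 site had 380, 353, 512, 416 and 345 scaled reads in wild-type and 582, 1315, 1283 and 1456 in R749H libraries. The lowest R749H library thus exceeded the highest wild-type library. The ratio of the means was 2.89, or 3.83 relative to the median gene. At the distal site the scaled reads were 1748, 847, 1071, 827 and 671 in wild-type and 822, 480, 458 and 398 in R749H, with overlapping groups and a ratio of 0.522, or 0.693 relative to the median gene. The proximal site was thus higher and the distal site lower on both scales. Inside the proximal site, 2 isoforms 6 nt apart at +96 and +102, which follow the same AATAAA, were also compared. The share of their reads at +102 averaged 73.7% in wild-type libraries, with 71.6%, 73.1%, 79.3% and 72.1% in R749H, and the groups overlapped.

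REEP5 encodes a hairpin membrane protein that helps shape the tubules of the endoplasmic reticulum. Its major sites were at +290 to +321 and +2376 to +2418, with peaks 2094 nt apart. In wild-type replicates 1 to 5, the share at or beyond +2399 was 60.8%, 66.7%, 74.3%, 67.9% and 65.7%, and in R749H replicates 1 to 4 it was 55.5%, 46.0%, 57.2% and 48.1%. The gap between the groups, from 57.2% to 60.8%, is narrow. The wild-type mean was 67.1% ± 4.83 (SD, n = 5) and the R749H mean 51.7% ± 5.47 (SD, n = 4), a difference of −15.4 points on 148 to 507 reads per library, with Wilson intervals up to 15.5 points wide. After all libraries were thinned to the smallest the difference was −12.9 points and the groups overlapped. When whole sites were counted instead of isoforms, the gap was wider, with 71.6% to 84.7% of reads at the distal site in wild-type and 56.6% to 63.8% in R749H libraries.

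The proximal REEP5 site had 65.8, 35.7, 23.3, 53.5 and 47.1 scaled reads in wild-type and 79.4, 85.7, 143 and 78.7 in R749H libraries, a ratio of 2.14 between groups that did not overlap, or 2.84 relative to the median gene. The distal site had means of 214 ± 35.7 (SD, n = 5) and 180 ± 47.1 (SD, n = 4), and its direction depends on the scale, with a ratio of 0.838 as scaled and 1.11 relative to the median gene. On both scales the ratio of the proximal site was the larger.

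**Figure D2:**
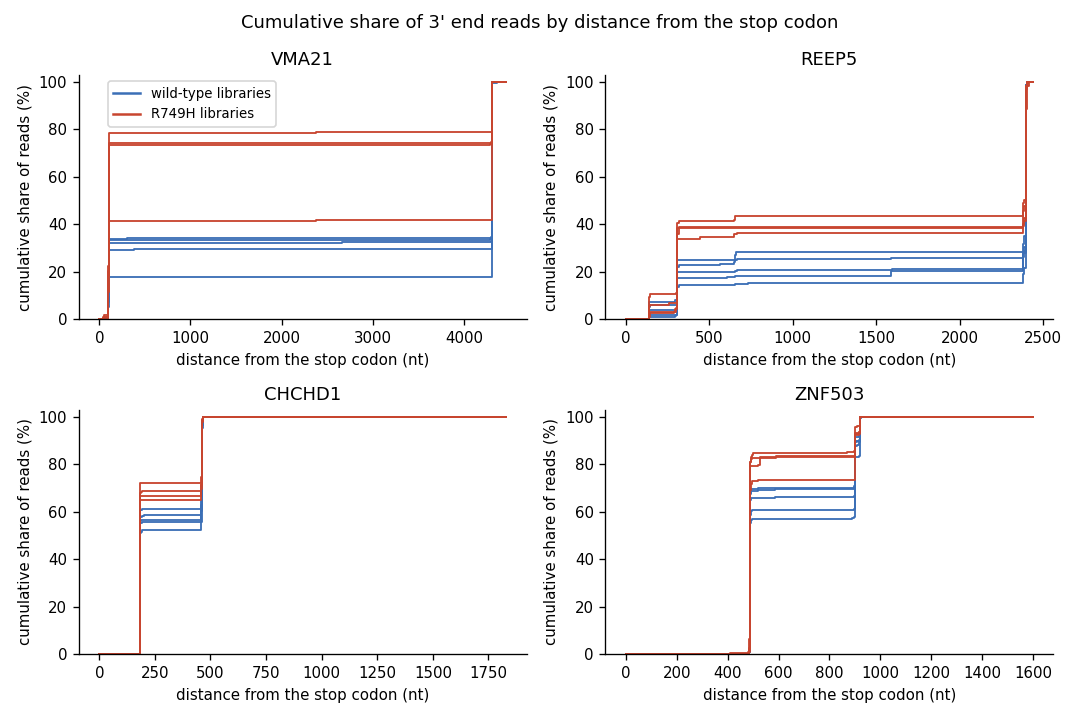
Cumulative share of reads (%) against the distance of the 3’ end from the stop codon (nt) in VMA21, REEP5, CHCHD1 and ZNF503, with 1 line per wild-type (blue) or R749H (red) library. Each step is a site, and between the 2 major sites all R749H lines run above all wild-type lines in every panel. In VMA21 the line of R749H replicate 1 is the nearest to the wild-type lines.

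CHCHD1 encodes a small twin CX9C protein of the mitochondrial ribosome. It had major sites at +179 to +203 and +457 to +475, with peaks 280 nt apart. The shares at or beyond +187 were 48.8%, 44.9%, 43.7%, 42.1% and 39.4% in wild-type and 31.9%, 33.5%, 28.0% and 35.1% in R749H libraries, in the order of the replicates. The R749H libraries lay close together, with no library apart. Their mean of 32.1% ± 3.04 (SD, n = 4) was 11.6 points below the wild-type mean of 43.8% ± 3.50 (SD, n = 5), on 627 to 2831 reads per library. By the absolute difference, 978 of the 7876 genes with reads in every library exceeded CHCHD1.

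The distal CHCHD1 site had 759, 728, 723, 732 and 746 scaled reads in the wild-type and 462, 533, 454 and 500 in the R749H libraries. The groups were 737 ± 14.9 (SD, n = 5) and 488 ± 36.6 (SD, n = 4), apart by more than their spread, with a ratio of 0.661, or 0.877 relative to the median gene. The proximal site averaged 976 and 1045 scaled reads, a ratio of 1.07, or 1.42 relative to the median gene, with overlapping groups. Within the distal site 2 strong isoforms lay 4 nt apart at +460 and +464 after the same AATAAA. The share at the further of them was 69.6%, 65.4%, 63.8%, 60.6% and 68.4% in wild-type and 64.7%, 58.5%, 51.0% and 60.8% in R749H libraries. The R749H mean differed by −6.80 points, and the groups overlapped.

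ZNF503 encodes a zinc finger protein of the NET family, a transcriptional repressor of development. Its sites at +482 to +526 and +871 to +925 were 411 nt apart at their peaks. The shares at or beyond +492 were 35.2%, 41.4%, 32.1%, 32.7% and 44.7% in wild-type and 30.7%, 18.9%, 20.9% and 18.9% in R749H libraries. R749H replicate 1 lay within 2 points of the lowest wild-type library, and the other R749H libraries lay at 20.9% or less. The means were 37.2% ± 5.55 (SD, n = 5) and 22.4% ± 5.65 (SD, n = 4), a difference of −14.9 points, and −17.7 without R749H replicate 1. The gene had 247 to 1402 reads per library.

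At the distal ZNF503 site, the scaled reads were 210, 343, 253, 266 and 366 in wild-type and 161, 75.3, 110 and 91.6 in R749H libraries. The ratio was 0.381, or 0.505 relative to the median gene. The groups did not overlap as scaled. Relative to the median gene they would, as R749H replicate 1 would lie above wild-type replicate 1. The main isoforms of this site at +899 and +919 lie 20 nt apart, each after an ATTAAA of its own. As scaled, both were lower in every R749H library than in any wild-type library, with ratios of 0.366 and 0.297. Relative to the median gene the ratios were 0.486 and 0.394, and at +899 the groups would overlap. The proportion of +899 to +919 overlapped between the groups, with 27.3% to 43.5% of their reads at +919 in wild-type and 20.2% to 47.5% in R749H libraries. The proximal site had a ratio of 0.886 as scaled and 1.17 relative to the median gene, so its direction depends on the scale, and the groups overlapped. The stretch between the 2 peaks of ZNF503 had 27.6% GC, against 35.6% in VMA21, 34.8% in REEP5 and 41.9% in CHCHD1.

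**Figure D3:**
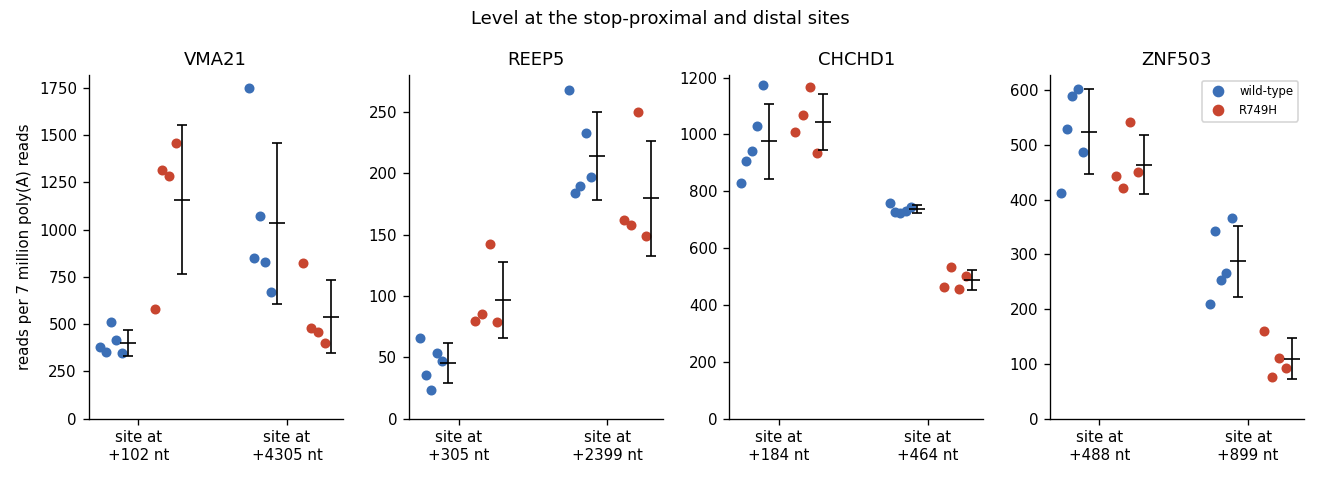
Reads scaled to 7 M poly(A) reads per library at the proximal and distal major sites of VMA21, REEP5, CHCHD1 and ZNF503, as points per wild-type (blue) or R749H (red) library with mean ± SD in black. On this scale the groups are apart at the proximal sites of VMA21 and REEP5 and at the distal sites of CHCHD1 and ZNF503, and overlap at the other site of each gene.

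RSL1D1 encodes a nucleolar protein with a ribosomal L1 domain that takes part in ribosome formation and is known for restraining cellular senescence. It differs from the genes above in having a single major site, from +405 to +484, with 99.1% of its reads, so its downstream share compares isoforms of 1 site and not 2 lengths of 3’ UTR. The shares at or beyond +447 were 55.2%, 52.7%, 55.2%, 52.1% and 57.7% in wild-type and 46.6%, 48.5%, 44.6% and 44.5% in R749H libraries. The difference of the means, 54.6% ± 2.22 (SD, n = 5) and 46.1% ± 1.90 (SD, n = 4), was −8.50 points, the smallest of the 6 genes but with the smallest spread, on 1103 to 3532 reads per library. A larger absolute difference was found in 1658 of the 7876 genes with reads in every library.

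The reads of RSL1D1 fell mostly on +433 and +447, 14 nt apart. The isoform at +433 held 28.0% ± 2.55 (SD, n = 5) of the reads in wild-type and 36.3% ± 2.93 (SD, n = 4) in R749H libraries, and the isoform at +447 held 51.7% ± 2.06 and 43.3% ± 1.86. The isoform at +434 had 8.61% and 9.44%, and that at +440 had 5.08% and 4.60%. The share of +447 within the pair +433 and +447 was 65.6%, 61.4%, 66.1%, 62.3% and 68.7% in wild-type and 56.1%, 57.2%, 50.7% and 53.5% in R749H libraries, without overlap. The strongest pair within a site could be compared in 5 sites of these genes, and the groups overlapped in VMA21, CHCHD1 and ZNF503 but not in RSL1D1. Nothing is read from this contrast, as the RSL1D1 pair is nearly the same measure as the downstream share that chose the gene. The pairs also differed in reads, with at least 872 per library in RSL1D1 and minima of 36 to 243 in the others. The scaled level at +433 had a ratio of 1.22 and that at +447 of 0.788, or 1.62 and 1.05 relative to the median gene, with overlapping groups at each.

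**Figure D4:**
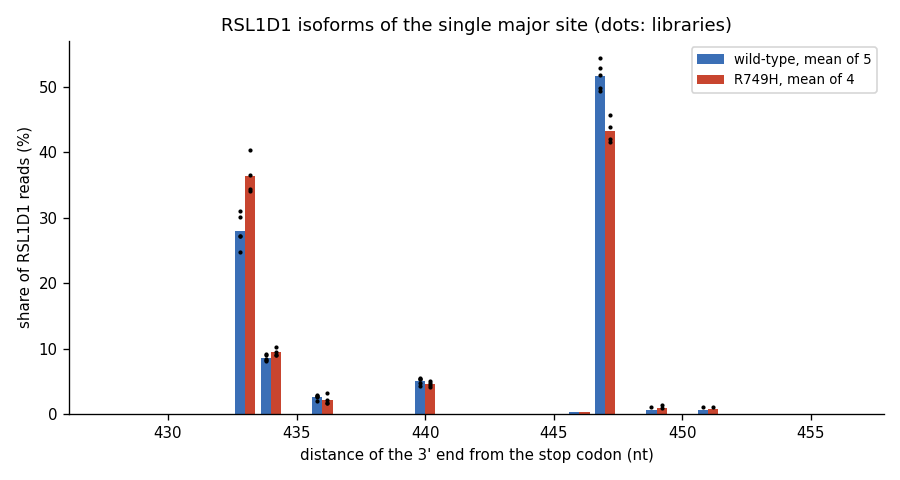
Share of RSL1D1 reads (%) at each nucleotide around its single major site, by distance from the stop codon (nt), as bars for the mean of the wild-type (blue) and R749H (red) libraries and black dots for single libraries with a share above 1%. The R749H bar is higher at +433 and lower at +447.

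AXL encodes a receptor tyrosine kinase of the TAM family, bound by GAS6, and it was weakly expressed here with 12 to 43 reads per library. The shares at or beyond +3135 were 5.26%, 66.7%, 23.7%, 23.8% and 25% in wild-type and 72.2%, 79.1%, 100% and 92.0% in R749H libraries. Wild-type replicate 2 lay close to the R749H libraries. The means were 28.9% ± 22.7 (SD, n = 5) and 85.8% ± 12.5 (SD, n = 4). No other gene of the 7876 with reads in every library had an absolute difference above its 56.9 points. Its Wilson intervals reached 44.3 points in width, and the interval of wild-type replicate 2, from 43.7% to 83.7%, overlaps that of R749H replicate 1, from 56.0% to 84.2%. After thinning to the smallest library the groups overlapped, with a difference of 51.5 points.

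The downstream AXL ends lie outside its annotated 3’ UTR. The annotated AXL gene ends at chr19:41767671, 1 nt past the isoform at +1861, and HNRNPUL1, a gene for an RNA binding protein that was named after its values were seen, starts 730 nt further on the same strand at chr19:41768401. Of the reads assigned to AXL by distance, 61.3% lay beyond that start, in an intron of HNRNPUL1. At AXL's own end there were 16, 6, 27, 31 and 7 reads in wild-type and 5, 4, 0 and 2 in R749H libraries. Inside HNRNPUL1 there were 3, 12, 11, 11 and 5 reads in wild-type and 31, 39, 20 and 23 in R749H libraries. Neither set of counts overlapped between the groups. The 20 reads of R749H replicate 3 were all inside HNRNPUL1, and its 0 at AXL's own end allows up to 3 reads by counting error. This library has few isoforms of 1 read, such as those at AXL's own end in R749H replicate 4, so its 0 and its 100% may not reflect counting error alone, which was not tested. The ends before HNRNPUL1 were at +1857, +1861 and +1863, and no difference in 3’ UTR length could be measured from so narrow a span.

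Set against the reads at the end of HNRNPUL1 itself, the reads inside its intron numbered 7.11, 9.87, 8.33, 3.80 and 1.79 per 1000 in wild-type and 21.5, 53.6, 22.1 and 20.1 per 1000 in R749H libraries. All R749H values were thus above all wild-type values, and R749H replicate 2 was the highest. The main intronic end, at +3135, has none of the 9 hexamers in the 40 nt before it, and 19 of the 20 nt after it in the genome are A. At least as many were found after 0.0251% of the most used ends of 7955 genes, a set with a median of 4 that includes this end. The authors had discarded reads whose As could all come from the genome. The letters before +3135 resemble the end of an Alu repeat, an element whose copies end in a run of A, though no repeat annotation was used here. The second intronic end, at +3260, has none of the hexamers either but 2 A in the 20 nt after it. It had 2 reads in wild-type replicate 2, none in the other wild-type libraries, and 5, 0, 12 and 1 reads in R749H libraries. Whether the A run had a part in the reads at +3135 was not tested. The AXL end at +1861 has the rarer signal CATAAA.

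**Figure D5:**
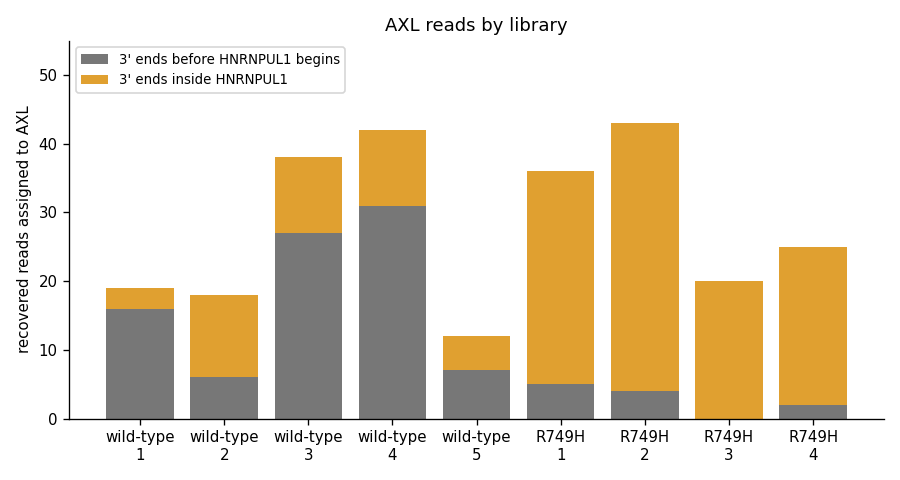
Recovered reads assigned to AXL in each library, divided into 3’ ends before HNRNPUL1 begins (grey) and inside HNRNPUL1 (orange). The grey part holds 6 to 31 reads in wild-type and 0 to 5 in R749H libraries, and the orange part 3 to 12 and 20 to 39.

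The total of the reads assigned to each gene overlapped between the cell lines for all 6. The ratio of scaled totals was 1.19 for VMA21, 1.06 for REEP5, 0.894 for CHCHD1, 0.709 for ZNF503, 0.943 for RSL1D1 and 1.28 for AXL, and relative to the median gene 1.58, 1.41, 1.19, 0.94, 1.25 and 1.70. The AXL total includes the reads inside HNRNPUL1. At AXL's own end alone the ratio was 0.153 as scaled, or 0.203 relative to the median gene. There every R749H library lay below every wild-type library. Over the totals of 9681 genes, 22.4% had every R749H library below and 3.73% above every wild-type library on the authors' scale.

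Genes of the same families and complexes were examined from a list of 42, of which 41 had reads and 37 enough for a test of the downstream share. None of the 37 passed with limma after adjustment, 2 had an unadjusted p under 0.05, where 8.74% of all genes did, and in none were the groups apart, against 2.44% and 1.28% of all genes. Their median difference was 0.03 points, with a range from −21.6 to 12.2. The 2 with the unadjusted p, both on the list of REEP5, are given as values. REEP3 is involved in clearing the endoplasmic reticulum from chromosomes in mitosis. Its downstream shares were 92.6% ± 4.53 (SD, n = 5) in wild-type and 83.2% ± 3.33 (SD, n = 4) in R749H libraries (limma adjusted p = 0.392). ATL2, an atlastin that fuses tubules, had 51.6% ± 8.66 and 30.02% ± 16.6 (limma adjusted p = 0.51).

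The family gene with the most reads on each list is given next. In ATP6V0C, REEP2 and FBL nearly all reads fell on 1 side of the division, which leaves little room for a difference in points. ATP6V0C, the proteolipid of the membrane sector that VMA21 helps to assemble, had downstream shares of 98.0% and 98.3% in wild-type and R749H libraries. REEP2 had 2.38% and 3.42%, CHCHD10 had 77.8% and 78.6%, and FBL, the methyltransferase of box C/D snoRNPs in the nucleolus, had 7.34% and 7.38%. ZNF703, the closest relative of ZNF503, had 60.4% ± 11.7 (SD, n = 5) and 63.4% ± 1.91 (SD, n = 4), and the TAM receptor TYRO3 had 52.7% ± 5.32 and 46.2% ± 12.6. None of these 6 genes passed the test of the downstream share.

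In total reads, 38 of the family genes were tested with limma and TMM factors, and 5 rose and 2 fell at an adjusted p of 0.05, where 10.9% of all 9681 genes rose and 12.8% fell. The V-ATPase list had 2 that rose, the subunit gene ATP6V0B by a log2 change of 1.57 ± 0.16 (SE, limma adjusted p = 9.35e-06) and the receptor gene ATP6AP2 by 0.54 ± 0.18 (SE, limma adjusted p = 0.0439). CCDC115, an assembly factor like VMA21, changed by −1.49 ± 0.37 (SE, limma adjusted p = 0.00859). Of the CX9C genes, CHCHD7 changed by 1.46 ± 0.19 (SE, limma adjusted p = 9.47e-05) and CHCHD5 by −1.40 ± 0.24 (SE, limma adjusted p = 0.000906). NOP56, a core protein of box C/D snoRNPs on the nucleolar list of RSL1D1, changed by 1.86 ± 0.19 (SE, limma adjusted p = 1.03e-05), and ARL6IP1, on the list of REEP5, by 0.70 ± 0.22 (SE, limma adjusted p = 0.0327). The ratios of these 7 under the authors' scaling, from 0.305 to 2.94, had the same directions.

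The genes most like each of the 6 were taken by the Pearson correlation of log2 downstream odds over the 9 libraries, among 7954 others. These were PACS2 for VMA21 (r = 0.97), GDPD3 for REEP5 (0.94), SMC6 for CHCHD1 (0.98), ZFAT for ZNF503 (0.95), RABIF for RSL1D1 (0.97) and IGSF21 for AXL (0.96). The points share the libraries and their depth, and each is the highest of all values computed, so these are descriptions. The differences of R749H minus wild-type were −13.4 points for PACS2, −12.4 for GDPD3, −17.8 for SMC6, −20.4 for ZFAT and −13.3 for RABIF. Nothing is read from their direction, as the correlation includes the difference between the lines for which the 6 genes were chosen. For IGSF21 no difference was taken, as a library had no reads of it.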

How the data were processed

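Poly(A) RNA was measured by 3’ READS in 5 wild-type and 4 R749H libraries, and the 4 eNETseq libraries of the series were not used. The authors removed 4 random nt and leading Ts, truncated reads to at most 77 nt, mapped them to hg19 without mismatches in the first 30 nt, required non-templated As, and assigned ends to stop codons up to 5 kb upstream. The submitters' processing notes name Bowtie2 2.3.2. In the deposited tables the authors give a signal value for each isoform, its reads scaled to 7 M poly(A) reads in the library. Division by the smallest step gave whole reads for 100% of values, within 0.0055. Pooled tables were not used.

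Groups came from the sample titles. Fits, counts and percentages over all genes are of CCDS entries, and some genes have more than 1 entry, such as RTN3 with 3. Downstream shares were tested as log2 odds after adding 0.5 reads, in genes with a mean of at least 20 reads, and totals with TMM factors after filtering, both with limma 3.58.1 and Benjamini-Hochberg adjustment, because the values are scaled. Alternatives were edgeR 4.0.16 and DESeq2 1.42.0 on recovered reads, other divisions, filters, thinning, a replicate block and each library left out. The scripts were tested on simulated data. Sequences came from GRCh37, and those of RSL1D1 are not reported here. Intervals cover counting error only, as reads were not collapsed to molecules. No 2 replicates agreed within sampling noise (chi-square per degree of freedom at least 2.26).

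Members and lists were chosen with earlier results of these data known. Named were the 6 genes, the genes listed as marks of HEK293 cells, family genes past an adjusted p of 0.05 or with the most reads, and the most alike gene of each of the 6. HNRNPUL1, REEP3 and ATL2 were named after their values were seen.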

Additional observations from a re-analysis of the deposited data

Results flagged for a closer look

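In 46 groups of 4 or 5 libraries (the downstream share and the total of each gene, and the level at each major site), 7 had a library whose gap to the nearest other, divided by the range of the group, was above Dixon's 95% critical value, which chance exceeds in about 1 of 20 groups. R749H replicate 1 lay above the other R749H libraries in the downstream share of VMA21, with 58.0% against 20.8% to 25.8%. The same library lay above the others in ZNF503, with 30.7% against 18.9% to 20.9%.

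R749H replicate 3 had more reads than the other R749H libraries at both REEP5 sites, with 143 scaled reads against 78.7 to 85.7 at +305 and 250 against 149 to 162 at +2399. It is the library with few isoforms of a single read, and the downstream share of REEP5 in it, 57.2%, was not set apart. The total of AXL was 63.5 scaled reads in R749H replicate 2 against 29.4 to 34.4 in the others. At the AXL end at +3260, wild-type replicate 2 had 2.75 scaled reads, which are 2 reads, against 0 in the others. The total of ZNF503 was 625 scaled reads in wild-type replicate 1, the library with the fewest reads, against 842 to 873 in the others.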

How the results depend on the processing

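The difference in downstream share of VMA21, REEP5, CHCHD1, ZNF503 and RSL1D1 kept its direction and moved by less than 1 SD in every alternative run for it. When reads beyond the start of the next gene were left out, AXL gave −5.37 points on 3 R749H and 5 wild-type libraries. This is another measure, as the division moved from +3135 to +1861 among ends at most 6 nt apart, and with 2 to 5 reads per R749H library its sign rests on 1 read at +1857 in R749H replicate 4. With each library left out in turn, the differences ranged from −45.6 to −33.2 points for VMA21, −17.2 to −13.5 for REEP5, −12.7 to −10.3 for CHCHD1, −17.7 to −13.0 for ZNF503, −9.31 to −7.72 for RSL1D1 and 51.0 to 66.4 for AXL. The groups stayed apart for all 6. Nothing is read from this, as groups apart with all libraries stay apart without 1 of them unless the division moves. Thinning left 4 of the 6 apart. RSL1D1 has no midpoint between sites.

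Of all genes, 6 were called for a shift by limma, and 19 by edgeR and 46 by DESeq2 on the recovered reads. Leaving out a library gave 1 to 6, with 1 without any of the 5 wild-type libraries in turn. A replicate block over replicates 1 to 4 gave 0, where 644 genes had an unadjusted p under 0.05, and the same libraries without a block, an alternative chosen after seeing the data, gave 1. Correlations of same-numbered libraries were −0.06 to 0.05, so the numbers were not taken to pair them. Calls for total reads were 2298, 2116 with the replicate block, and 1546 to 2708 with a library left out. The 12 to 43 reads of AXL limit its precision to Wilson intervals of up to 44.3 points.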
